A study of Mus musculus with 6 samples.

Results

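The 7 genes described here encode stress granule proteins grouped around the scaffold gene G3bp1, namely G3bp1, G3bp2, Caprin1, Tia1, Tial1, Usp10 and Pabpc1. All 7 were found among the 22180 genes with a value on all 6 arrays. For each gene the transcript cluster was chosen by its mean intensity, taking the highest mean over the 6 arrays, and the set itself was put together with earlier results of the same comparison known. The differences between groups given for these genes are therefore a description and not independent evidence.

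RNA came from the RET line, a mouse melanoma line of the strain labelled C57BL\6, in cultures grown for 24 h. Cells of 3 cultures carried Angpt2 shRNA-1, a short hairpin RNA against Angpt2, the gene of the secreted Tek ligand angiopoietin-2, and cells of 3 control cultures carried a non-targeting shRNA. Both groups had thus been transduced with a hairpin, and GFP stands in the titles of the controls. The series has 1 hairpin against Angpt2 and no rescue, so loss of Angpt2 and other effects of that hairpin cannot be told apart. In such bulk cultures less RNA per cell and fewer cells of a kind cannot be told apart either.

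Stress granules are cytoplasmic assemblies of messenger RNA, small ribosomal subunits and RNA-binding proteins that form when translation initiation stalls, classically after phosphorylation of the initiation factor eIF2. G3bp1 and its paralog G3bp2 are the RNA-binding scaffolds that drive assembly. Caprin1 binds the G3bp proteins and favours assembly, whereas the deubiquitinase Usp10 binds them in competition with Caprin1 and opposes it. Tia1 and Tial1 are related RNA-binding proteins that enter the granules, and Pabpc1 is the cytoplasmic poly(A)-binding protein carried in on the messages. In melanoma and other tumours stress granules are studied for their part in survival under stress.

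Angpt2, the targeted gene, had an intensity of 100.2, 122 and 122 on Angpt2 shRNA-1 arrays 1, 2 and 3, against 195, 372 and 326 on the control arrays. Every Angpt2 shRNA-1 array lay below every control array. The log2 fold change in limma was -1.33 (SE 0.21, adjusted p 1.00), with an adjusted p of 0.046 when the replicate number was a block and of 0.0116, at -1.61, without control replicate 1. Array medians ranged from 74.5 to 76.2, and without detection calls signals near that level could not be told from background. The 8 melanocyte markers had intensities of at least 182 on all arrays, with a summed level of 35414 to 37895 on Angpt2 shRNA-1 arrays and 36122 to 39302 on control arrays. Summed over 6 markers each, the Angpt2 shRNA-1 arrays had 405 to 424 for endothelial cells, 465 to 496 for fibroblasts and 455 to 510 for macrophages, and the control arrays had 371 to 406, 468 to 516 and 466 to 514 for the same lists. No marker of these other cell types exceeded 175 on any array, and their part in the values below was not tested.

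Of the 7 members 0 passed the test over all genes, against a background of 0% (0 of 22180 genes at a limma adjusted p under 0.05, and 835 at an unadjusted p under 0.05). The adjusted p was 1.00 for each member. Log2 fold changes, Angpt2 shRNA-1 minus control shRNA, were positive for 4 members and negative for 3, with a median of 0.02 against -0.01 for all genes. That balance rested on single arrays and on the processing. Without Angpt2 shRNA-1 replicate 2, 3 were positive and 4 negative (median -0.02). The split was the same without control replicate 1 (-0.10) and without control replicate 2 (-0.08). With all 6 arrays kept, it was also 3 and 4 with the mean of all clusters (-0.0044) and with array weights (-0.0014). G3bp1 stood apart with a value of 0.53, while the other 6 lay between -0.17 and 0.12. For comparison, the 5th and 95th percentiles of all genes were -0.20 and 0.18.

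**Figure D1:**
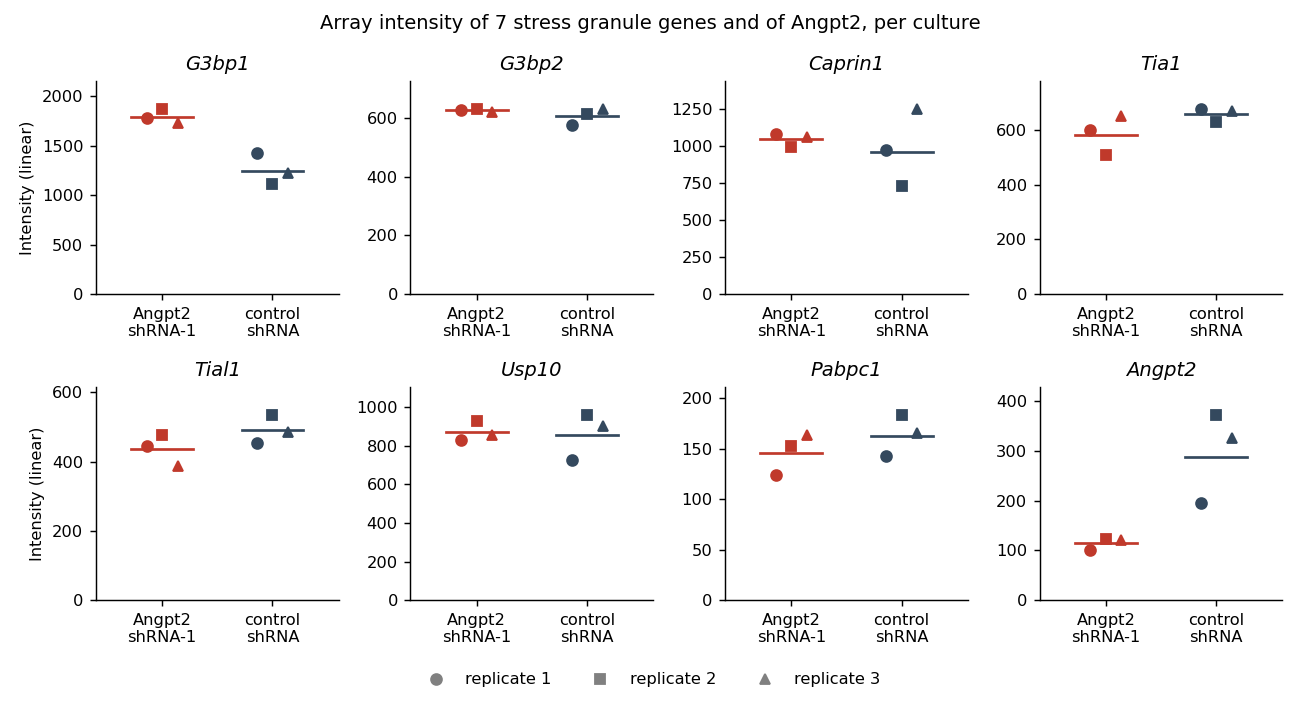
Normalized array intensity (linear scale, vertical axes from 0) of the 7 members and of Angpt2 in Angpt2 shRNA-1 cultures (red, left) and control shRNA cultures (dark, right). Each point is 1 culture, its shape gives the replicate number and the line is the geometric mean of 3, and G3bp1 is the member whose groups do not overlap, at 1725 to 1870 against 1107 to 1424.

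G3bp1, the main scaffold (gene ID 27041, transcript cluster 17249833), had intensities of 1782, 1870 and 1725 on Angpt2 shRNA-1 arrays 1, 2 and 3, and of 1424, 1107 and 1218 on control arrays 1, 2 and 3. All 3 Angpt2 shRNA-1 arrays lay above all 3 control arrays, a pattern seen in 1 of 7 members and in 3.53% of all genes. On the log2 scale the level was 10.81 ± 0.06 in Angpt2 shRNA-1 cells and 10.28 ± 0.18 in control cells (SD, n = 3 each). The log2 fold change was 0.53 (SE 0.11, 95% confidence interval 0.29 to 0.77), or 1.44-fold. An exact two-sided permutation test gave p 0.1, the smallest value possible with 3 arrays against 3. Within replicate numbers 1, 2 and 3 the difference was 0.32, 0.76 and 0.50 on the log2 scale. Control array 1, the brightest control, came closest to the Angpt2 shRNA-1 arrays. G3bp1 was also the 1 member of 7 among the 1.52% of genes with a positive difference and an unadjusted limma p under 0.05. Since it was selected on this same contrast, nothing is read from either share.

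G3bp2, the paralog with the same scaffold role (gene ID 23881), had intensities of 629, 631 and 620 on Angpt2 shRNA-1 arrays and of 577, 614 and 631 on control arrays, read from cluster 17449627. The groups overlapped, with control array 3 next to the brightest Angpt2 shRNA-1 array. The log2 fold change was 0.05 (SE 0.08, 95% confidence interval -0.13 to 0.23). G3bp2 also varied least among the members, with a pooled SD within groups of 0.048 on the log2 scale, against 0.12 for the median of all genes. A dimmer G3bp2 cluster, 17439060, which the choice of the brighter row left out, had intensities of 83.1, 81.1 and 71.4 against 78.6, 74.6 and 92.0, near the array medians, and a log2 fold change of -0.06 (SE 0.11).

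The sequences just upstream of the annotated starts of both scaffold genes are set side by side as a description. Any link between these sequences and the array values was not tested. Each line gives the 150 bases before a RefSeq transcript start in build GRCm38.p6, 5′ to 3′ on the gene's strand, with motif matches in capitals. G3bp1 lies on the plus strand at chr11:55469602-55469751. G3bp2 lies on the minus strand and has 3 start windows in the table. The far one, chr5:92137726-92137875, and a nearer one, chr5:92083599-92083748, are shown, and the third, chr5:92083338-92083487, held no match and is not shown.
G3bp1: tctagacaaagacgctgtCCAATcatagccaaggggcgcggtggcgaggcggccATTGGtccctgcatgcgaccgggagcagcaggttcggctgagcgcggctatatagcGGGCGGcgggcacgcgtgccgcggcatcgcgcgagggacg
G3bp2, far start: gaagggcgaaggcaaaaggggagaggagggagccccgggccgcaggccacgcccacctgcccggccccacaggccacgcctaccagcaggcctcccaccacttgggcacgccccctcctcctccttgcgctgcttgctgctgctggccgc
G3bp2, nearer start: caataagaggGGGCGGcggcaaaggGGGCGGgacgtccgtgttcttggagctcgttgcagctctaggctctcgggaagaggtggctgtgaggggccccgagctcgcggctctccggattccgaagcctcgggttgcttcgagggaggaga
The capitals mark CCAAT (the CCAAT box) and GGGCGG (the GC box), searched on both strands, and no matches of different motifs overlap in these lines.

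The G3bp1 window held 2 CCAAT matches, 1 on each strand, at 132 to 128 and 96 to 92 bases before the start, and 1 GC box at 40 to 35. Of the 3 G3bp2 windows, the nearer one shown held 2 GC boxes and no CCAAT, and the other two held neither motif. Over 32851 start windows of the same 150 bases, CCAAT was present in 24.5% and the GC box in 28.6%. The other 4 motifs searched were TATAAA (the TATA box, 7.57% of all windows), CACGTG (an E-box, 4.30%), TGACGTCA (the cAMP response element, 1.36%) and TGATGNAAN (the ATF4-CHOP composite element, 2.22%). None of these 4 was present in any of the 9 windows of the 6 members that matched the table. CCAAT was present in the G3bp1 window alone among those 9, where 24.5% of all windows held it. The GC box was also present in the Caprin1 window and in a Tial1 window, and Pabpc1 had no window. A match describes only the letters.

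Caprin1, the partner of the G3bp proteins, had intensities of 1085, 997 and 1060 on Angpt2 shRNA-1 arrays, against 972, 733 and 1253 on control arrays. The Angpt2 shRNA-1 arrays fell within the range of the controls, whose brightest and dimmest arrays differed 1.71-fold. The log2 fold change was 0.12 (SE 0.17, 95% confidence interval -0.26 to 0.50), with within-number differences of 0.16, 0.44 and -0.24. Without control replicate 2, the dimmest array, the value was -0.08, and without control replicate 3 it was 0.31.

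Usp10, the competitor of Caprin1 for the G3bp proteins, had intensities of 830, 925 and 857 on Angpt2 shRNA-1 arrays and of 725, 959 and 901 on control arrays. The groups overlapped, and control array 1 was the dimmest. Its log2 fold change was 0.02 (SE 0.11, 95% confidence interval -0.24 to 0.28). It was -0.10 without control replicate 1 and -0.02 without Angpt2 shRNA-1 replicate 2, so it has no settled direction.

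Tia1 had intensities of 599, 506 and 651 on Angpt2 shRNA-1 arrays, against 676, 628 and 670 on control arrays. Angpt2 shRNA-1 array 2 was the dimmest, and array 3 lay within the controls. For Tia1 the log2 difference came to -0.17 (SE 0.11), with a 95% confidence interval of -0.41 to 0.06. Tial1, its paralog, had intensities of 444, 477 and 389 on Angpt2 shRNA-1 arrays and of 455, 534 and 485 on control arrays. Its groups overlapped too, with Angpt2 shRNA-1 array 2 above control array 1. The log2 fold change of Tial1 was -0.17 (SE 0.11, 95% confidence interval -0.41 to 0.06). All 3 within-number differences were negative for both genes, at -0.17, -0.31 and -0.04 for Tia1 and -0.04, -0.16 and -0.32 for Tial1. The arrays that carried the low values thus differed, array 2 for Tia1 and array 3 for Tial1. Without Angpt2 shRNA-1 replicate 2 the log2 fold change of Tia1 was -0.07, and without replicate 3 that of Tial1 was -0.09.

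Pabpc1, the poly(A)-binding protein, had intensities of 124, 152 and 164 on Angpt2 shRNA-1 arrays, against 143, 183 and 166 on control arrays. The groups overlapped, and the array numbered 1 was the dimmest in each. The log2 fold change was -0.16 (SE 0.13, 95% confidence interval -0.46 to 0.13), and without Angpt2 shRNA-1 replicate 1 it was -0.05. Pabpc1 was read from 1 cluster. It was the dimmest of the 7 members, at 124 to 183 against array medians of 74.5 to 76.2, and has no detection call. How signals of different clusters relate to transcript amounts was not tested, so this order is one of signal only.

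**Figure D2:**
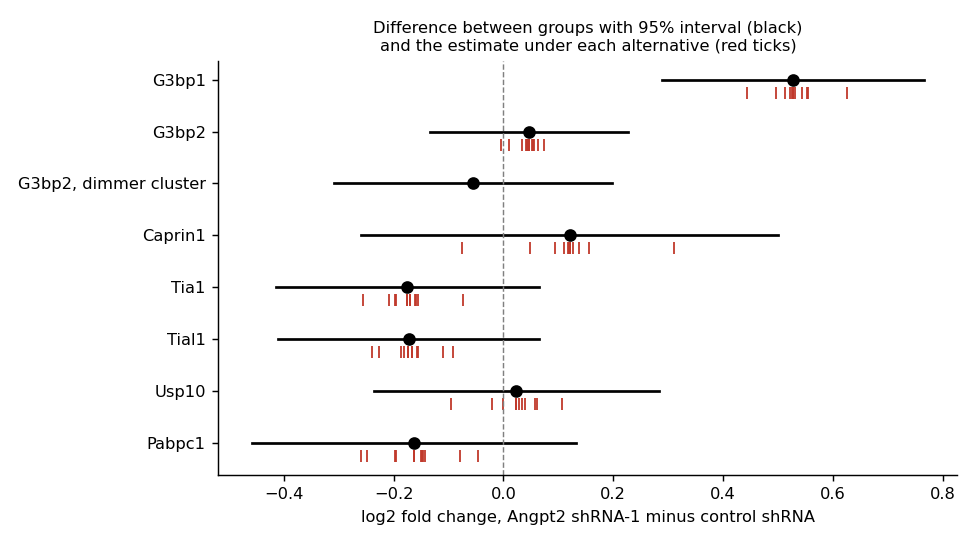
Log2 fold change of each member, Angpt2 shRNA-1 minus control shRNA (horizontal axis), from limma, with black lines for 95% confidence intervals and red ticks for the estimates under the alternative settings. G3bp1 is the member whose interval, 0.29 to 0.77, lies clear of 0. The ticks of Caprin1, Usp10 and G3bp2 fall on both sides of 0. The intervals are not adjusted for the number of genes, and G3bp1 was chosen with this contrast known.

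The 95% intervals of the other 6 members all included 0, which does not show that these genes were at the same level in both groups. The interval of Caprin1 was the widest, and the interval of G3bp2, from -0.13 to 0.23, was the narrowest.

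A single scaling factor per array cancels in ratios within that array, so G3bp1 was also set against each other member on the same array. Other steps of a normalization can still change such ratios. The log2 ratio of G3bp1 to G3bp2, centred on its mean over the 6 arrays, was 0.23, 0.29 and 0.20 on Angpt2 shRNA-1 arrays, against 0.03, -0.42 and -0.33 on control arrays. All 3 Angpt2 shRNA-1 arrays were above all 3 controls, and the group means differed by 0.48. The ratio of G3bp1 to Usp10 gave the narrowest gap, with 0.31, 0.22 and 0.22 on Angpt2 shRNA-1 arrays against 0.18, -0.58 and -0.36 on control arrays. For each of the 6 ratios the groups did not overlap, with differences of group means from 0.41 for Caprin1 to 0.70 for Tia1. G3bp1 was chosen with this contrast known and its own groups did not overlap, so separation in the ratios was favoured beforehand. These ratios share the G3bp1 values and are not 6 separate observations. How often G3bp1 separates in this way against other genes was not computed.

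**Figure D3:**
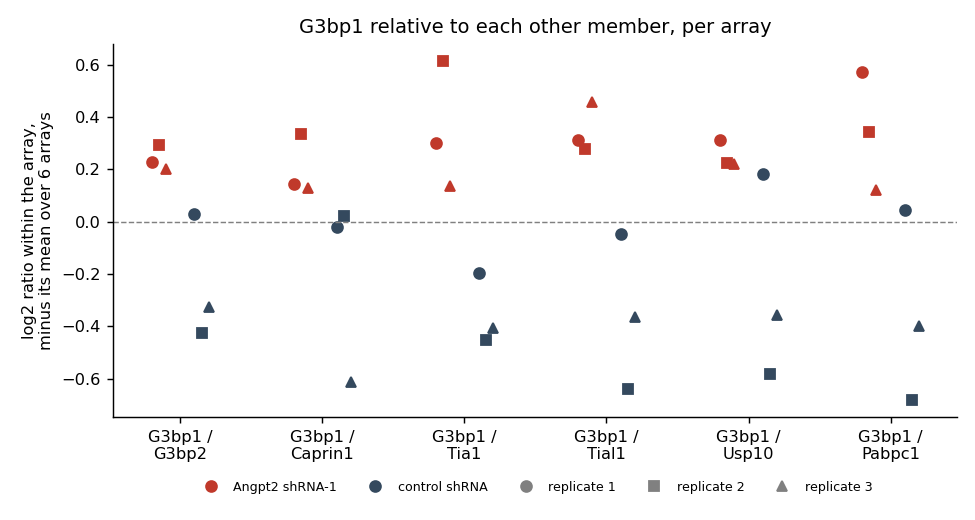
Log2 ratio of G3bp1 to each other member within an array, minus the mean of that ratio over the 6 arrays (vertical axis), for Angpt2 shRNA-1 cultures (red, left of each pair) and control shRNA cultures (dark, right), with 1 point per culture. Red points lie above dark points in all 6 ratios, and control replicate 1 is the control nearest to them for all but the ratio to Caprin1. The 6 ratios share the G3bp1 values, whose own groups do not overlap, so they are not separate observations.

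Members were described array by array as well. The number of members above their own 6-array mean was 3, 4 and 5 on Angpt2 shRNA-1 arrays 1, 2 and 3, and 1, 4 and 6 on control arrays 1, 2 and 3. The median deviation of the members was -0.05, 0.03 and 0.07 on Angpt2 shRNA-1 arrays and -0.07, 0.02 and 0.07 on control arrays. Caprin1 had the widest pooled SD within groups, 0.28 on the log2 scale, and G3bp1, at 0.14, was close to Tia1 (0.14) and Tial1 (0.13).

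The 5 genes with array profiles closest to that of G3bp1, by root mean square difference of centred log2 values over the 6 arrays, were Dppa5a (0.075), Rbm7 (0.097), Tes (0.11), Mthfsl (0.11) and Med19 (0.11). Rbm7 encodes an RNA-binding adaptor of the nuclear exosome, Tes a LIM protein of focal adhesions and Med19 a Mediator subunit. Rbm7 had intensities of 785, 903 and 882 on Angpt2 shRNA-1 arrays, against 757, 574 and 652 on control arrays. Med19 had 372, 468 and 457 against 342, 284 and 280. Like G3bp1, all 5 genes had their 3 Angpt2 shRNA-1 arrays above their 3 control arrays, which the choice by likeness itself favours. Dppa5a, at 46.6 to 70.0, could not be told from background. No other member was near. G3bp2, the closest of them by this measure, ranked number 5287 of 22179 genes with a difference of 0.28. Pabpc1, the farthest, ranked number 21266 with 0.43. G3bp2 varied little (pooled SD within groups 0.048), so its rank is not read as a shared profile.

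**Figure D4:**
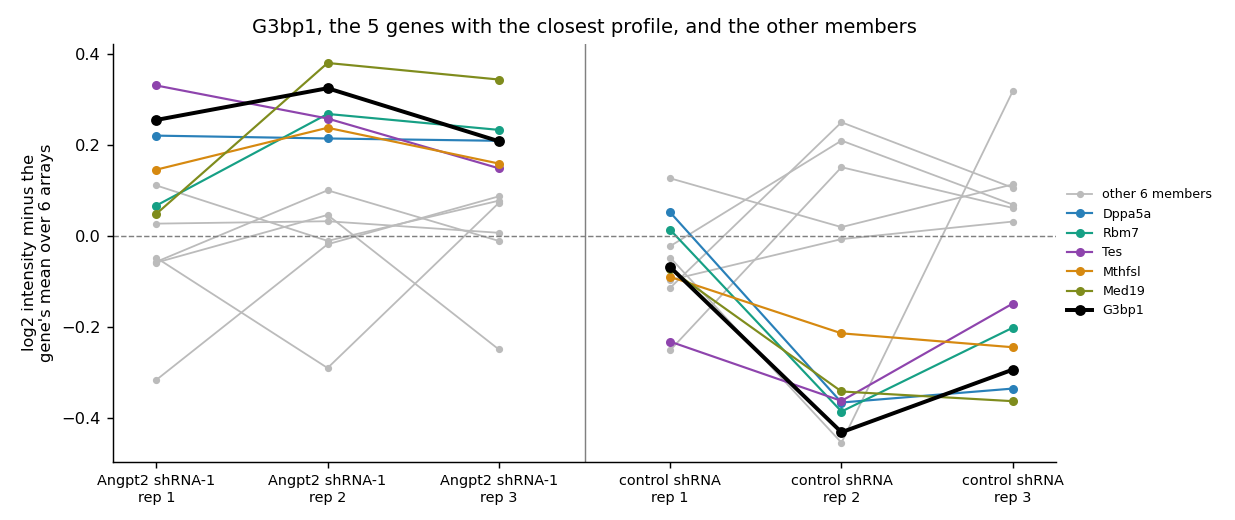
Log2 intensity minus the gene's mean over 6 arrays (vertical axis) on the Angpt2 shRNA-1 arrays (left) and the control shRNA arrays (right), for G3bp1 (black), the 5 genes closest to it (colours) and the other 6 members (grey). Lines join arrays of 1 group only for the eye, and the grey lines show no separation by group like that of G3bp1.

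The wider machinery was described with 5 lists of 111 genes, of which 103 were measured. Over these lists 46 genes had positive and 57 negative log2 fold changes, or 44.7% positive against 45.2% of all genes, with a median of -0.01, and 0 passed the test. Groups did not overlap for 3 genes with higher and 3 with lower Angpt2 shRNA-1 arrays, out of 103, where the backgrounds were 3.53% and 5.48%. Both counts lay below those shares, so no theme is read from these genes. No member of the 7 had all its Angpt2 shRNA-1 arrays below the controls. Of the 6 genes in the wider lists, 2 were kinases that phosphorylate eIF2, Eif2ak3 (PERK, 0.24) and Eif2ak4 (GCN2, 0.19), and 1 was Pabpc4l (0.08). The other 3 were the RNA-binding protein gene Khsrp (-0.18), the decapping scaffold gene Edc4 (-0.15) and Eif4enif1 (-0.10), which encodes the eIF4E transporter of P bodies. The remaining eIF2 kinase genes, Eif2ak1 (-0.007) and Eif2ak2 (-0.06), had negative values and overlapping groups. Eif2ak1, Eif2ak2, Eif2ak4, Pabpc4l, Edc4 and Eif4enif1 were picked out after their values were seen.

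Among 33 measured scaffold and RNA-binding partners of stress granules, 12 were positive and 21 negative, with a median log2 fold change of -0.02 and 0 passing the test. Without control replicate 2 the split was 18 positive and 15 negative, and without control replicate 1 it was 7 and 26. Ybx1, a cold shock domain protein of messenger RNA particles, was at -0.37 (SE 0.19). Its value rested on control array 2, with 237 against 116 to 154 on the other arrays, and was -0.12 without it. Dyrk3, the kinase that helps dissolve stress granules, was at 0.24 (SE 0.15), or 0.13 without control array 1, and Fmr1, the fragile X protein gene, at -0.18 (SE 0.09). Of 18 FET and hnRNP proteins, nuclear RNA-binding proteins that can enter stress granules, 6 were positive and 12 negative, with a median of -0.01 and 0 passing. The split was 9 and 9 with median centring or without Angpt2 shRNA-1 replicate 1, and 10 positive and 8 negative without control replicate 3. The largest sizes were those of Ewsr1 (-0.30, SE 0.18, but -0.10 if Angpt2 shRNA-1 array 1 is left out), Taf15 (-0.28, SE 0.12, but -0.17 without control array 1) and Khsrp (-0.18, SE 0.09).

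P bodies are the neighbouring granules of messenger RNA decay and storage. Of their 20 measured genes 13 were positive and 7 negative, with a median of 0.04 and 0 passing. Without control replicate 1 the balance turned, to 8 positive and 12 negative. Edc3, an enhancer of decapping, had intensities of 236, 289 and 238 on Angpt2 shRNA-1 arrays against 376, 358 and 285 on control arrays. Angpt2 shRNA-1 array 2 overlapped control array 3, and the log2 fold change was -0.41 (SE 0.13). Lsm5, of the Lsm ring, was at 0.29 (SE 0.18), or 0.06 if Angpt2 shRNA-1 array 1 is left out. Lsm14b was at 0.21 (SE 0.12), or 0.32 without Angpt2 shRNA-1 array 2.

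Of 17 genes of the poly(A)-binding family and its partners, 9 were positive and 8 negative, with a median of 0.03 and 0 passing, against 7 and 10 without Angpt2 shRNA-1 replicate 3. Pabpc4, a paralog of Pabpc1, was at -0.24 (SE 0.18) with 155 on control array 1 against 87.6 to 103 on the other arrays, and at -0.01 without that array. Tob1, which recruits deadenylases, was at 0.26 (SE 0.18), or 0.09 if the first Angpt2 shRNA-1 array is left out. Pabpc6, at intensities of 53.4 to 74.9, could not be told from background. The last list holds 15 measured genes around eIF2 phosphorylation, namely the eIF2 kinases, the phosphatase and its partners, the eIF2 subunit gene Eif2s2 and the genes of the exchange factor eIF2B. Of these 6 were positive and 9 negative, with a median of -0.01 and 0 passing. With median centring the split was 9 positive and 6 negative, and with quantile normalization it was 8 and 7, as it was without Angpt2 shRNA-1 replicate 2 or 3 or control replicate 3. Ppp1r15a (GADD34), the stress-induced subunit of the eIF2 phosphatase, was at -0.46 (SE 0.25), with 260 on control array 1 against 110 to 141 on the other arrays, and at -0.12 without that array. The eIF2 subunit gene Eif2s2 was at -0.28 (SE 0.18), or -0.11 with array 1 of the Angpt2 shRNA-1 cultures left out. Eif2ak3 was at 0.24 (SE 0.11), or 0.14 without control array 2.

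**Figure D5:**
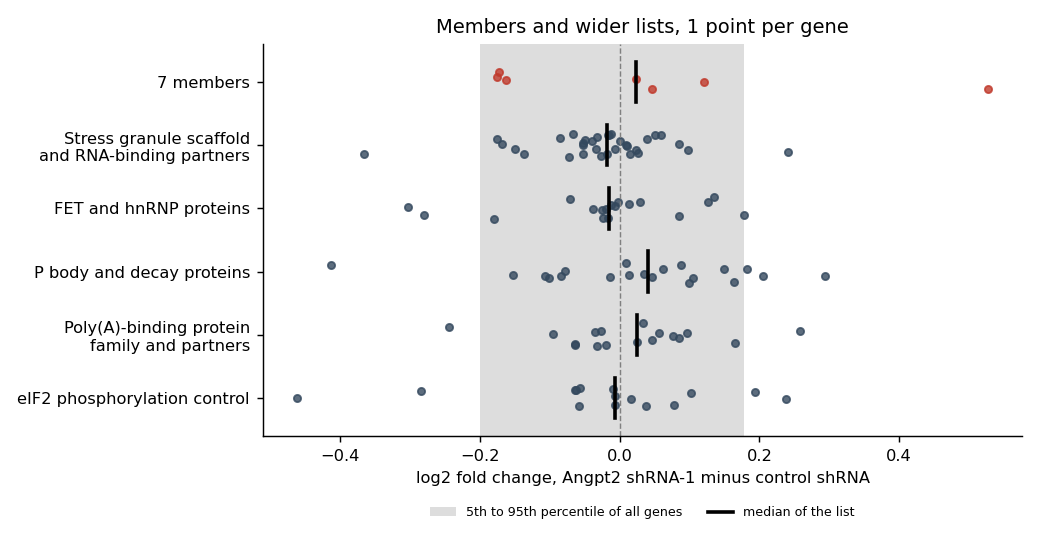
Log2 fold change, Angpt2 shRNA-1 minus control shRNA (horizontal axis), of the 7 members (red) and of the 5 wider lists (dark), with 1 point per gene, a black bar at each list's median and grey for the 5th to 95th percentile of all genes. G3bp1, at 0.53, lies to the right of every other point, and the list medians lie between -0.02 and 0.04.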

How the data were processed

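RNA of 3 Angpt2 shRNA-1 and 3 control shRNA cultures was measured on Affymetrix Mouse Gene 2.0 ST arrays, 1 per culture, from 100 ng of total RNA per the labels. The deposited table holds the authors' normalized intensity for each transcript cluster, linear as judged from its values. Method, software and genome build are not given in the sources used here. Per the labels, the samples are biological repeats, so p-values rest on the spread between these cultures, with variances moderated over all genes. With 1 hairpin against Angpt2, they do not cover differences between hairpins. The number of arrays limits the precision.

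Of 41345 clusters, 40425 had a value on all arrays. The platform annotation gave 1 symbol for 23521 clusters, several for 1814 and none used here for 16010. Clusters with 1 symbol were kept, with the highest mean intensity per gene, and 22180 genes were tested without a filter on low values. The groups were compared on log2 intensities, without a pseudocount, by limma 3.58.1 under R 4.3.3 (lmFit, then eBayes). Its two-sided p-values were adjusted over all genes by Benjamini-Hochberg, with 0.05 as the threshold. The fit was tested on simulated data. Promoter sequences are RefSeq's (GRCm38.p6).

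Members and lists were chosen with earlier results of these data known. Named genes are Angpt2, the members, in each wider list the 3 genes with the largest absolute log2 fold change where 0 were called, and the 5 genes closest to G3bp1. The 8 listed genes without a 1-symbol cluster were not analysed here.

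Both groups share replicate numbers. Deviations from the group means correlated over genes at 0.13, 0.21 and 0.14 for arrays of the same number, the only sign of pairing, since the labels give no shared day. The numbers were treated as pairs in an alternative fit with the number as a block. Other alternatives were quantile normalization, median centring, a filter on dim genes, the mean of all clusters, all clusters, array weights, the trend and robust options of eBayes, a pseudocount of 16 and leaving out each array.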

Additional observations from a re-analysis of the deposited data

How the results depend on the processing

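G3bp1 kept its direction and stayed uncalled under all 15 alternatives, with log2 fold changes of 0.44 to 0.63 and adjusted p from 0.44 to 1.00. Leaving out or weighting arrays could not turn that direction, since all its Angpt2 shRNA-1 arrays lay above all control arrays. The block, the filter, the cluster settings and the trend and robust options leave its estimate unchanged by construction. The kept direction is therefore no further support. With the replicate number as a block G3bp1 was at 0.53 with an adjusted p of 0.997. Tia1, Tial1 and Pabpc1 also kept their direction under the same 15. G3bp2 was at -0.0044 as the mean of its clusters and at -0.055 in its dimmer cluster. Usp10 was at -0.0014 with array weights and from -0.096 to 0.11 with 1 array left out, and Caprin1 from -0.076 to 0.31. The causes were not tested. No member passed under any of these alternatives. Over all genes the number called was 0, and 2 with the block (Angpt2 at -1.33 and Pld4), 1 with quantile normalization, 1 with median centring and 1 with trend and robust options (Pld4 each time), and 0 to 2 with 1 array left out, namely Angpt2 without control replicate 1 and Btbd35f12 and Plekho1 without control replicate 2. The block changed no other call among the genes named here, and Pld4, Btbd35f12 and Plekho1 were named after their values were seen. Angpt2 ranged from -1.61 to -1.14 with 1 array left out. Intensities near the array medians limit what can be read from dim genes.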
